A study of Mus musculus with 8 samples.

Results

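The 9 genes that encode the subunits of the AMPA and kainate classes of ionotropic glutamate receptor were followed in bulk RNA-seq of mouse brain cells positive for tdTomato. They are Gria1, Gria2, Gria3 and Gria4 (AMPA) and Grik1, Grik2, Grik3, Grik4 and Grik5 (kainate), taken by gene symbol from 53507 gene rows, and all 9 symbols were found. The study holds 8 libraries in 4 groups of 2. P12 hypoxia libraries came from pups kept in 10% oxygen for 8 days, postnatal day 3 to 11, and P12 normoxia libraries from pups of the same age kept in normal air, with the nursing mothers of both groups traded on days 6 and 9. E15 and E13 libraries came from embryos at day 15 and day 13 that the labels mark wt. In all groups the cells carry the red fluorescent protein tdTomato and are labelled progenitor cells. The promoter that drives tdTomato, the strain, and whether the libraries of a group came from separate animals are not given in the sources used here, so p-values measure the spread between these libraries, which may be technical.

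AMPA receptors carry most fast excitatory transmission in the brain. They are tetramers of the Gria subunits, and glial progenitors as well as neurons make them. Kainate receptors are tetramers in which Grik1, Grik2 and Grik3 can form channels on their own, while Grik4 and Grik5 need one of those partners. Each subunit has a re-entrant pore loop, and in Gria2, Grik1 and Grik2 a glutamine codon at its tip can be recoded to arginine by adenosine-to-inosine RNA editing. In Gria2 that recoding keeps calcium out of the channel, so the balance of Gria2 against the other AMPA subunits sets calcium entry.

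The coding stretch around that codon is shown for all 9 subunits because the recoding of Gria2, Grik1 and Grik2 falls on it. The sequences are from GENCODE M21 transcripts on GRCm38, 5′ to 3′ on the coding strand, 27 bases each, with the pore glutamine codon in capitals.
Gria1: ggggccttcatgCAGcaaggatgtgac
Gria2: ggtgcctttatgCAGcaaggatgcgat
Gria3: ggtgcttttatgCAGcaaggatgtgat
Gria4: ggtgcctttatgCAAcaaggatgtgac
Grik1: ggagctctcatgCAGcaaggatcggag
Grik2: ggagctctcatgCAGcaaggttctgag
Grik3: ggctccctgatgCAGcaaggatctgaa
Grik4: ggaggcttcatgCAGcaaggctccact
Grik5: ggtggcttcatgCAGcagggctcggag
All 9 genes encode glutamine there in the genome, 8 of them with CAG and Gria4 with CAA. Over the 27 bases Gria2 and Gria3 differed at 2 positions, as did Grik1 and Grik2, and the most distant pairs differed at 10. The codon lies in exon 11 of Gria2 (GRCm38 chr3:80706911-80706913, minus strand), in exon 13 of Grik1 (chr16:87940542-87940544, minus strand) and in exon 12 of Grik2 (chr10:49244329-49244331, minus strand). Counts per gene hold no base calls, so the editing itself was not measured. Of the 36 pairs of members, 7 shared any stretch of 50 transcript bases, 9 such stretches at most, and none of the 9 genes overlaps a gene annotated on the opposite strand. On the same strand Gria2, Gria3 and Gria4 overlap 1 annotated gene each, Grik3 and Grik4 2 each and Grik2 6, and how reads shared with them were counted is not given in the sources used here.

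Depth was 36252027 to 47084796 counts in gene rows per library. The P12 libraries held fewer detected genes than the embryonic ones: 12785 and 11695 genes reached 10 counts in P12 hypoxia and 14129 and 16468 in P12 normoxia, against 17520 to 18318 in the 4 embryonic libraries. CPM below is the depth-scaled count on normalised library sizes. Among tested genes with at least 10 CPM in 1 library of a group, 35% differed over 10-fold from the other library in P12 hypoxia and 17.5% in P12 normoxia, against 0.0105% in E15 and 0.0619% in E13. Of the members, Gria3 and Grik5 showed such a gap in P12 hypoxia, and Grik3 and Grik4 in P12 normoxia. A count of 0 allows up to 3 counts, which is 0.101 and 0.111 CPM in P12 hypoxia and 0.0482 to 0.0978 CPM in the other libraries. That limit and the counting intervals below cover counting error only. The labelled cell type was set beside marker lists. The 10 astrocyte markers summed to 12830 and 10330 CPM in P12 hypoxia and 10230 and 10310 CPM in P12 normoxia, against 31.8 to 54.0 CPM in the embryo. The 9 radial glia markers summed to 1265 to 1737 CPM at P12 and 286 to 395 CPM in the embryo. Most of the astrocyte sum at P12 was Aldoc, Slc1a2 and Slc1a3. Their means were 4403.6, 2443.8 and 3346.5 CPM in hypoxia and 3791.4, 2114.4 and 2923.4 CPM in normoxia. The lists hold different genes, so their sums do not rank the cell types.

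**Figure D1:**
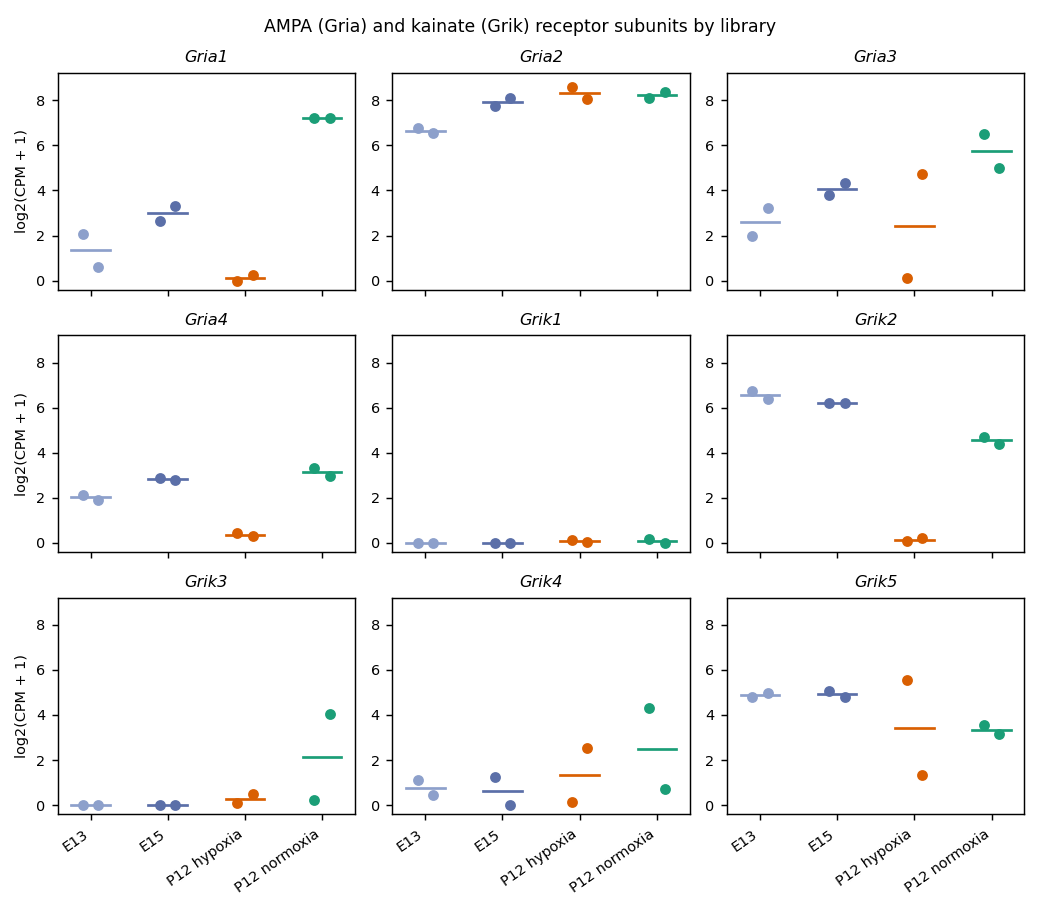
Level of each of the 9 subunits, as log2(CPM + 1), in the 2 libraries of each group (points) with their mean (line). Gria2 was high in all 8 libraries, Grik1 was near 0 in all, and Gria1, Gria4 and Grik2 lay near 0 in both P12 hypoxia libraries but not in P12 normoxia.

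The subunits parted after postnatal hypoxia: the hypoxic range of Gria2 overlapped its normoxic range, while Gria1, Gria4 and Grik2 had at most 10 counts in either hypoxic library. Grik2 fell in P12 hypoxia against P12 normoxia, and it was the only member of the 8 tested that passed an adjusted p of 0.05 (edgeR quasi-likelihood test, Benjamini-Hochberg adjusted over 19936 genes). Of all tested genes 3.02% were called in that comparison, 2.82% lower and 0.196% higher. Grik1 did not pass the filter on low counts. The ranges of the groups did not overlap for 4 members, Gria1, Gria3, Gria4 and Grik2, each lower in P12 hypoxia, a pattern shown by 20.1% of all tested genes, while no member was higher in both hypoxic libraries, which 13.1% of genes were. The median log2 fold change was -3.53 over the 4 AMPA subunits and -3.49 over the 4 tested kainate subunits, beside 0 over all tested genes. The kainate median lies between Grik3 (-5.02) and Grik4 (-1.97), whose ranges overlapped between the groups. Each of the 2 turned sign without 1 normoxic library, to 0.57 for Grik3 and 2.30 for Grik4. In bulk samples fewer cells of a type that makes a transcript and less of it per cell cannot be told apart.

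Gria2 (GRCm38 chr3:80681450-80802835, minus strand) was the most abundant AMPA subunit per length in both embryonic groups and in P12 hypoxia. It had 108 and 91.5 CPM at E13, 214 and 276 CPM at E15, 386 and 263 CPM in P12 hypoxia and 272 and 329.9 CPM in P12 normoxia. The hypoxic and normoxic ranges overlapped, and the E13 libraries were the lowest of the 8. Hypoxia against normoxia gave a log2 fold change of 0.11 (SE 0.30, edgeR adjusted p = 0.968), and the sign turned to -0.019 with upper-quartile scaling. Taken per kilobase of exon, Gria2 stood above 65.8% of 19532 tested genes with a known length at E13, above 82.8% at E15, above 83.0% in P12 hypoxia and above 83.3% in P12 normoxia.

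Gria1 (chr11:57011387-57330244, plus strand), the subunit whose delivery to synapses is best known from plasticity, separated the 2 P12 groups most widely. It had 182 and 29 counts at E13 (3.26 and 0.517 CPM), 301 and 558 at E15 (5.30 and 8.97 CPM), 0 and 5 in P12 hypoxia (0 and 0.185 CPM), and 4625 and 4573 in P12 normoxia (147 and 149 CPM). The hypoxic libraries were below all others and the normoxic ones above all others. Hypoxia against normoxia gave a log2 fold change of -10.62 (SE 1.99), which missed the threshold (edgeR adjusted p = 0.0544, 3.463e-12 to 0.567 over 17 alternatives), and the pooled counts gave a level 1680-fold lower in hypoxia (95% exact interval 719.5 to 5174). DESeq2 called it lower in hypoxia, and limma-voom did not (adjusted p = 0.567).

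Gria4 (chr9:4417896-4796234, minus strand), a subunit with fast gating, was low throughout. It had 3.36 and 2.76 CPM at E13, 6.46 and 6.01 CPM at E15, 0.336 and 0.222 CPM in P12 hypoxia (10 and 6 counts) and 8.99 and 6.94 CPM in P12 normoxia (283 and 213 counts). Both hypoxic libraries were below all 6 others. Its log2 fold change in hypoxia against normoxia was -4.82 (SE 0.88, edgeR adjusted p = 0.0503), just above the threshold, and the pooled counts gave a level 28.3-fold lower (17.3 to 49.9). The adjusted p was 2.583e-16 with DESeq2, 0.0455 with library totals alone and 0.399 with limma-voom.

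Gria3 (chrX:41400854-41678601, plus strand), which pairs with Gria2 in many neurons, differed widely between the hypoxic libraries. It had 3.0 and 8.29 CPM at E13, 13 and 19.3 CPM at E15, 0.101 and 25.4 CPM in P12 hypoxia and 89.7 and 31.1 CPM in P12 normoxia. The first hypoxic library held 3 counts and the second 688. The log2 fold change in hypoxia against normoxia was -2.24 (SE 1.94, edgeR adjusted p = 0.652). Without the first hypoxic library it was -1.15, and without the second -9.22 (adjusted p = 0.0421), so the value rests on which library is kept.

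Grik2 (chr10:49094833-49788766, minus strand), a channel-forming kainate subunit, was the leading kainate subunit per length at E13 and close to 0 in P12 hypoxia. It had 104 and 83.6 CPM at E13, 73.5 and 71.8 CPM at E15, 0.0673 and 0.148 CPM in P12 hypoxia (2 and 4 counts), and 25 and 20.2 CPM in P12 normoxia (787 and 620 counts). The order of the groups was E13, E15, P12 normoxia, P12 hypoxia, without overlap at any step. Hypoxia against normoxia gave a log2 fold change of -7.68 (SE 0.68, edgeR adjusted p = 0.0195), or 214-fold lower from pooled counts (98.1 to 584). The fold held between -8.33 and -7.12 when any 1 library was left out, but the call ended when any 1 of the 4 embryonic libraries was left out (adjusted p = 0.151 to 0.155), with limma-voom (0.403), with only the compared groups (0.341) and under the replicate block (0.0929).

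Grik5 (chr7:25009849-25072346, minus strand), an obligate partner subunit, was even across the embryo and split in P12 hypoxia. It had 26.4 and 30.5 CPM at E13, 31.9 and 27.0 CPM at E15, 45.7 and 1.52 CPM in P12 hypoxia and 10.6 and 7.82 CPM in P12 normoxia. The first hypoxic library was the highest of the 8 and the second the lowest. The log2 fold change in hypoxia against normoxia was 1.36 (SE 1.35, edgeR adjusted p = 0.714), and it turned to -2.49 without the first hypoxic library (adjusted p = 0.0482).

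Grik4 (chr9:42518135-42944493, minus strand), the other obligate partner, was below 2 CPM in the embryo and erratic at P12. It had 1.14 and 0.374 CPM at E13, 1.41 and 0.0161 CPM at E15, 0.101 and 4.88 CPM in P12 hypoxia and 18.9 and 0.619 CPM in P12 normoxia. The ranges of all 4 groups overlapped. Hypoxia against normoxia gave -1.97 on the log2 scale (SE 2.51, edgeR adjusted p = 0.810), with the sign turned to 2.30 without the first normoxic library.

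Grik3 (chr4:125490700-125714173, plus strand), a channel-forming subunit, was nearly absent outside 1 library. It had 1 and 0 counts at E13, 0 and 1 at E15, 2 and 11 in P12 hypoxia, and 5 and 470 in P12 normoxia, which is 15.3 CPM in the second normoxic library and at most 0.407 CPM in the other 7. Hypoxia against normoxia gave -5.02 on the log2 scale (SE 2.43, edgeR adjusted p = 0.341), and 0.57 without that library. Grik1 (chr16:87895900-88290265, minus strand), the third channel-forming subunit, had 0 counts in all 4 embryonic libraries, 3 and 1 in P12 hypoxia and 4 and 0 in P12 normoxia. It was not detectable above a few counts at this depth in any group, and no fold is given.

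**Figure D2:**
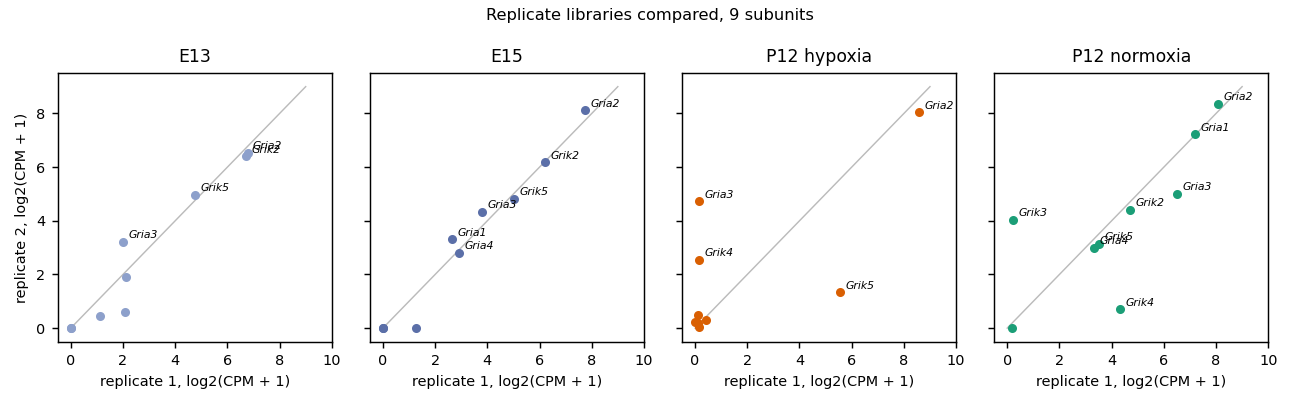
Replicate 2 against replicate 1 of each group for the 9 subunits, both as log2(CPM + 1), with the line of equality. Most embryonic points lie near the line, except Gria1 and Gria3 at E13 and Grik4 at E15, while Gria3, Grik4 and Grik5 in P12 hypoxia and Grik3 and Grik4 in P12 normoxia lie far from it.

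Markers of other cell types differed between the same libraries. The 12 neuron markers summed to 359 and 688 CPM in P12 hypoxia and to 1050 and 932 CPM in P12 normoxia, against 2732 to 3180 CPM in the embryo. In hypoxia against normoxia 4 of the 12 were called lower (Ina, Snap25, Stmn2 and Syp), beside 2.82% of all tested genes. Nefl and Nefm were at 0 counts in both hypoxic libraries, with Syt1 and Syp also at 0 in the first. In P12 normoxia Nefl averaged 12.6 ± 17.2 CPM and Nefm 8.56 ± 11.8 CPM (SD, n = 2), so each lay mostly in 1 library. Neither Nefl nor Nefm was called (edgeR adjusted p = 0.138 and 0.157). Not every marker of the list lay lower. Map2, a dendritic microtubule protein, had 177 and 310.2 CPM in P12 hypoxia and 80.3 and 151 CPM in P12 normoxia, without overlap and not called (edgeR adjusted p = 0.244), and the log2 fold changes of Dcx and Tubb3, at 1.04 and 0.59, were also positive and not called. Gap43, a growth cone protein, gave 91.6 and 0.962 CPM of the sums in P12 hypoxia and 465 and 313 CPM of those in P12 normoxia. The 10 interneuron lineage markers summed to 121 and 115 CPM in P12 hypoxia and to 307 and 279 CPM in P12 normoxia, against 2.68 to 5.30 CPM in the embryo. In hypoxia against normoxia 6 of the 8 tested had both hypoxic values below both normoxic ones, as did 20.1% of all tested genes. Among them Gad1, an enzyme that makes GABA, had 0.101 and 0.037 CPM in P12 hypoxia and 19.8 and 82.6 CPM in P12 normoxia, and was not called (edgeR adjusted p = 0.0883). Oligodendrocyte progenitor markers, 10 in all, ran the other way, with sums of 1459 and 2105 CPM in P12 hypoxia and 672 and 626 CPM in P12 normoxia, against 32.2 to 37.7 CPM in the embryo, though no marker of the list passed the edgeR test between the P12 groups. The 8 markers of maturing oligodendrocytes summed to 1306 and 2236 CPM in P12 hypoxia, 263 and 648 CPM in P12 normoxia and 25.5 to 53.8 CPM in the embryo. The part of cell make-up in the subunit differences was not tested.

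Between E15 and E13 no member passed the edgeR test. All 4 Gria genes had E15 values above every E13 value, as did 23.6% of all tested genes, and Grik2 had E15 values below every E13 value, as did 25.8%. In all, 0 of the 8 tested members and 0% of all genes were called, 1 member had an unadjusted p under 0.05 beside 3.46% of all genes, and DESeq2 and limma-voom called that 1 member, Gria2. Gria2 had a log2 fold change of 1.29 (SE 0.31), with an adjusted p of 0.945 by edgeR, 0.00102 by DESeq2 and 0.0174 by limma-voom. The log2 fold changes of Gria1, Gria3 and Gria4 were 1.92, 1.52 and 1.03, with SEs of 1.35, 1.90 and 0.75. That of Grik2 was -0.37 (SE 0.50), and Grik5 differed by 0.05 (SE 1.32).

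Between the embryo and P12 the 2 rearing conditions gave different member lists. Both comparisons share the embryonic libraries. In P12 normoxia against the mean of E13 and E15, Gria1 and Grik3 rose and Grik2 fell, where 17.8% of all tested genes were called, 12.1% higher and 5.68% lower. In P12 hypoxia against the same mean, Gria2 rose and Gria4 and Grik2 fell, where 26.1% were called, 13.2% higher and 12.9% lower. The test of whether a level differed between the rearing conditions is hypoxia against normoxia, above. Normoxic values lay above the whole embryonic range for Gria1, Gria3, Gria4 and Grik3, as for 27.3% of all genes, and below it for Grik2 and Grik5, as for 32.1%. Hypoxic values lay above it for Grik3, as for 21.3% of all genes, and below it for Gria1, Gria4 and Grik2, as for 36.3%. The Grik3 separation rests on 2 and 11 hypoxic counts against at most 1 per embryonic library. Of these the 2 is within the 3 counts that a count of 0 allows. The median log2 fold change of all tested genes was -0.04 in normoxia and -0.43 in hypoxia, and with library totals alone it was -0.85 and -1.32.

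Gria1 averaged 148 ± 1.53 CPM in P12 normoxia (SD, n = 2) and 4.51 CPM over the embryonic groups, a log2 fold change of 5.33 (SE 1.17, edgeR adjusted p = 0.0313), between 4.52 and 6.26 over 17 alternatives. The call ended when any embryonic or normoxic library was left out and under the replicate block. In P12 hypoxia Gria1 averaged 0.0925 CPM, below every embryonic library, a log2 fold change of -5.29 that missed the threshold (SE 1.57, edgeR adjusted p = 0.0546). Gria4 averaged 0.279 ± 0.0809 CPM in P12 hypoxia (SD, n = 2) and 4.65 CPM in the embryo, a log2 fold change of -3.95 (SE 0.81, edgeR adjusted p = 0.0198), and in P12 normoxia it differed from the embryo by 0.87 (SE 0.63, edgeR adjusted p = 0.377). The Gria4 call ended when any 1 embryonic library was left out, with limma-voom and under the replicate block.

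Gria2 was 324 ± 86.7 CPM in P12 hypoxia and 301 ± 40.7 CPM in P12 normoxia (SD, n = 2 each), against 172 CPM over the embryonic groups. The log2 fold changes were 1.05 in hypoxia (SE 0.25, edgeR adjusted p = 0.0311) and 0.94 in normoxia (SE 0.25, edgeR adjusted p = 0.0529). Both P12 ranges overlapped the E15 values. The rise depends on the scaling: with library totals alone the changes were 0.16 in hypoxia and 0.14 in normoxia, and neither was called. By library totals alone Gria2 had 305 and 168 CPM in P12 hypoxia and 186 and 279 CPM in P12 normoxia, against 292 and 365 CPM at E15 and 148 and 126 CPM at E13. Without the first hypoxic library the hypoxia value was 0.75. The hypoxia call ended there, with limma-voom and under the replicate block.

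Grik2 averaged 0.108 ± 0.0570 CPM in P12 hypoxia and 22.6 ± 3.38 CPM in P12 normoxia (SD, n = 2 each), against 83.2 CPM in the embryo. Hypoxia against embryo gave a log2 fold change of -9.55 (SE 0.72, edgeR adjusted p = 0.000812), which was called under all 17 alternatives with adjusted p up to 0.0315. Normoxia against embryo gave -1.87 (SE 0.47, edgeR adjusted p = 0.0461). That call ended when any 1 embryonic or normoxic library was left out, with limma-voom (adjusted p = 0.0908) and under the replicate block. The Grik3 call in normoxia, a log2 fold change of 9.40 (SE 2.17, edgeR adjusted p = 0.0361), rests on 470 of its 475 normoxic counts being in 1 library against 2 counts in the embryo. Without that library the value was 3.83. The Grik3 call ended there and under the replicate block. From pooled counts Grik3 was 882-fold higher in normoxia (243 to 7307). Gria3 and Grik5 passed in neither comparison, with log2 fold changes of 2.66 and -1.65 in normoxia and 0.42 and -0.29 in hypoxia.

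**Figure D3:**
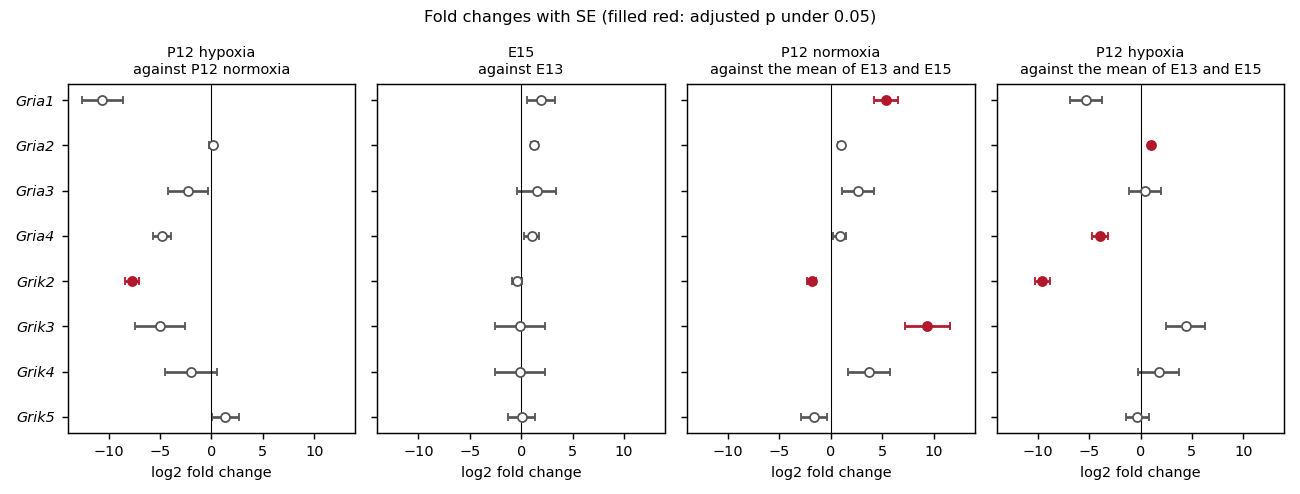
Log2 fold change with its SE (bars) of the 8 tested subunits in 4 comparisons, edgeR fit of all 8 libraries, filled red where the adjusted p was under 0.05. Grik2 is filled in 3 of the 4 panels, and no subunit is filled in E15 against E13.

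Per kilobase of exon, the AMPA class lay below the kainate class at E13 and above it at E15 and P12. The AMPA subunits summed to 8.35 and 7.25 CPM per kilobase at E13, 17.0 and 22.2 at E15, 24.9 and 19.6 in P12 hypoxia and 52.3 and 50.1 in P12 normoxia. The kainate subunits summed to 13.2 and 12.3 at E13, 12 and 10.7 at E15, 8.89 and 1.17 in P12 hypoxia and 7.13 and 4.85 in P12 normoxia. The AMPA share of the 9 subunits was 38.8% and 37.1% at E13, 58.7% and 67.5% at E15, 73.7% and 94.3% in P12 hypoxia and 88.0% and 91.2% in P12 normoxia. All 4 P12 libraries were above all 4 embryonic ones, with means of 86.8% ± 9.13 and 50.5% ± 15 (SD, n = 4 each). The difference was 36.3 percentage points (two-sided exact permutation test, p = 0.0286, the smallest that 4 against 4 can give, and 0.0571 after Benjamini-Hochberg adjustment over 2 shares). Each set of 4 pools 2 groups, so the SDs include the gap between E13 and E15 or between the P12 conditions. The p-value treats the 4 as like replicates.

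Per kilobase of merged exon, the Gria2 share of the AMPA class split the P12 groups. It was 83.5% and 81.2% at E13, 81.0% and 80.2% at E15, 99.7% and 86.5% in P12 hypoxia and 33.5% and 42.3% in P12 normoxia. Hypoxic libraries were above and normoxic libraries below the narrow embryonic range. The 4 P12 libraries averaged 65.5% ± 32.5, against 81.5% ± 1.44 in the embryo (SD, n = 4 each). The difference was -16.0 percentage points (two-sided exact permutation test, p = 0.429, and 0.429 after adjustment over the 2 shares). The P12 SD and this test pool hypoxia with normoxia, which lay on opposite sides of the embryonic range. By condition the difference from the embryo was 11.6 points in hypoxia and -43.6 points in normoxia, where 2 libraries against 4 cannot give a p below 0.133. Gria1 made up 0% and 0.15% of all 9 subunits in P12 hypoxia and 40.9% and 44.9% in P12 normoxia, and Grik2 made up 3.17% and 2.77% in P12 normoxia, against 36.5% and 32.3% at E13. The shares of Gria1 and Gria2 depend on the length used. Merged exons hold 15548 bases for Gria2 and 6043 for Gria1, and the longest transcripts 10371 and 5546. Without length scaling Gria2 exceeded Gria1 in P12 normoxia, at 272 and 329.9 CPM against 147 and 149 CPM.

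**Figure D4:**
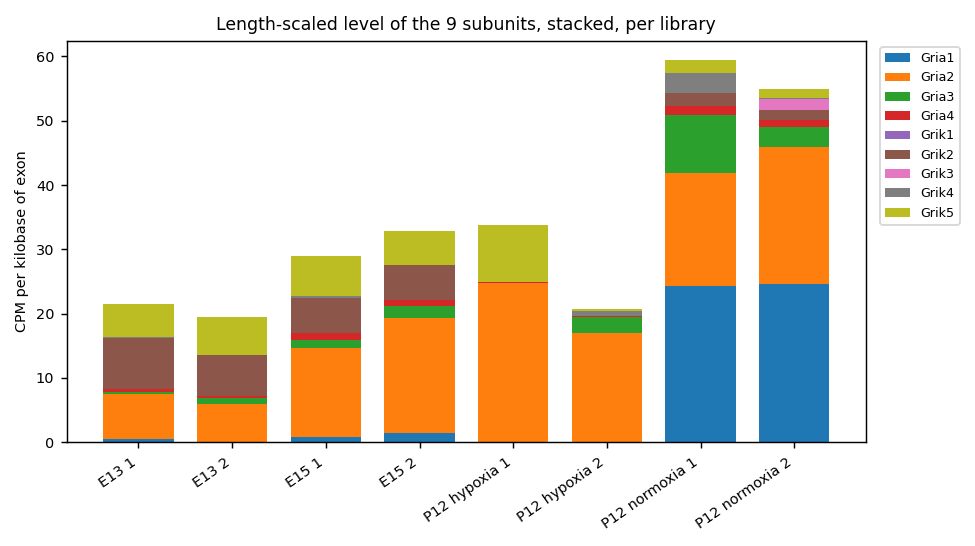
Stacked bars of CPM per kilobase of exon for the 9 subunits, 1 bar per library. Gria2 fills most of both P12 hypoxia bars, Gria1 and Gria2 share the P12 normoxia bars, and Grik2 and Grik5 are a large part of the E13 bars.

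Proteins that ride with the receptors were read from a list of 15 auxiliary subunits, of which 14 were tested. In hypoxia against normoxia 0 were called higher and 1 lower, beside 0.196% and 2.82% of all tested genes, with a median log2 fold change of -0.05, beside 0 for all tested genes. The count was 0 when any 1 embryonic library or the first normoxic library was left out, and 4 and 2 without the first and the second hypoxic library. The 1 was Neto2, a kainate receptor auxiliary subunit, which had 0.774 and 1.55 CPM in P12 hypoxia and 34.9 and 18.0 CPM in P12 normoxia, against 64.9 to 90.4 CPM in the embryo. Both hypoxic libraries lay below all 6 others, and hypoxia against normoxia gave -4.50 on the log2 scale (SE 0.67, edgeR adjusted p = 0.0328), called under 8 of 17 alternatives. Cacng2 (stargazin), which carries AMPA receptors to the synapse, had 0 counts in both hypoxic libraries and 6.45 and 16.9 CPM in P12 normoxia, at least 110.4-fold lower at 3 counts per hypoxic library, and was not called (edgeR adjusted p = 0.0586). Shisa7, an AMPA receptor-associated membrane protein, had 0 and 0.259 CPM in P12 hypoxia and 16.5 and 7.20 CPM in P12 normoxia (edgeR adjusted p = 0.161).

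Against the embryo Cacng4, Cacng7 and Cacng8, which are transmembrane AMPA receptor regulatory proteins, rose in both rearing conditions, while Cacng2 of the same family fell in hypoxia and was not called in normoxia, and Cacng5 was called in neither. Cacng8 had 125 and 233 CPM in P12 hypoxia and 217 and 167 CPM in P12 normoxia, against 0.552 to 1.98 CPM in the embryo, log2 fold changes of 7.44 (SE 0.45, edgeR adjusted p = 0.000422) and 7.55 (SE 0.45, edgeR adjusted p = 0.000458), both called under all 17 alternatives. Cacng7 rose by 5.09 in hypoxia and 4.96 in normoxia, and Cacng4 by 2.85 and 2.42. Cnih2, a cornichon export factor, rose by 1.0 and 0.98, but with library totals alone by 0.06 and 0.16, not called. In all, 4 list members were called higher and 0 lower in normoxia (median 2.68), and 5 higher and 3 lower in hypoxia (median 2.6), with Neto2 (-6.05), Shisa7 (-6.48) and Cacng2 (at least 7.38-fold lower) the lower ones. Of all tested genes 13.2% were called higher and 12.9% lower in hypoxia, and 12.1% higher and 5.68% lower in normoxia. Leaving out any 1 embryonic library left 2 or 3 list members called in hypoxia and 1 in normoxia. The normoxia count was 2 without either normoxic library, and 9 and 8 without the first and the second hypoxic library. Setting Cacng2 to its bound leaves the medians as they are, since it stays on the same side of them. The fifth higher gene, Shisa9, had 1.31 and 87.6 CPM in the 2 hypoxic libraries, and its range overlapped that of the embryo. In E15 against E13 edgeR called 0 of the 14, with 1 at an unadjusted p under 0.05 (Cacng8, 1.34), beside 3.46% of all tested genes. DESeq2 called 0 and limma-voom 1. The 3 of smallest p there were Cacng8, Cnih3 (3.09) and Gsg1l (-2.36).

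The list of 21 assembly, trafficking and synaptic anchoring proteins, 20 of them tested, gave 0 higher and 3 lower in hypoxia against normoxia (median -1.11), beside 0.196% higher and 2.82% lower over all tested genes (median 0). The count was 8 and 6 without the first and the second hypoxic library. Arc, an activity-induced protein that promotes AMPA receptor endocytosis, had 0.101 and 0.074 CPM in P12 hypoxia and 17.8 and 30.8 CPM in P12 normoxia, against 0.793 to 1.32 CPM in the embryo (-8.07, SE 1.04, edgeR adjusted p = 0.0245). Dlg2, the scaffold PSD-93, had 0.0336 and 0 CPM in P12 hypoxia and 34.2 and 27.9 CPM in P12 normoxia (edgeR adjusted p = 0.0346). From 1 pooled count, Dlg2 was 1766-fold lower in hypoxia (316.6 to 69780). Lrrtm1, a postsynaptic adhesion protein, had 0.0673 and 0.222 CPM in P12 hypoxia and 5.78 and 21.1 CPM in P12 normoxia (-6.52, SE 1.17, edgeR adjusted p = 0.0486). Arc, Dlg2 and Lrrtm1 were called under 10, 10 and 7 of the 17 alternatives, none of which turned the sign, and all 3 calls ended when any 1 embryonic library was left out.

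Against the embryo, 4 of that list rose and 2 fell in normoxia (median 0.91), and 1 rose and 5 fell in hypoxia (median -1.40). The 6 called of 20 in each stand beside 17.8% of all tested genes called in normoxia and 26.1% in hypoxia. Leaving out any 1 embryonic library left 1 called in normoxia and 0 to 2 in hypoxia. The normoxia count was 3 without the first normoxic library and 13 and 12 without the first and the second hypoxic library, and the hypoxia count was 11 without the second hypoxic library. Cpt1c, which helps assemble AMPA receptors in the endoplasmic reticulum, rose in both, by 1.75 in hypoxia and 2.71 in normoxia, and was positive under all 17 alternatives, though not called in hypoxia by library totals alone or when any 1 embryonic library was left out. Arc (4.53), Dlg4, which encodes PSD-95 (1.98), and Nptxr, the neuronal pentraxin receptor (4.53), were the other higher genes in normoxia, and Dlg1 (-2.72) and Nptx1 (-7.73) the lower ones. Nptx1, a secreted pentraxin that clusters AMPA receptors, fell in hypoxia too, where it had 1 pooled count and was 1250-fold lower (224 to 49390). Arc (-3.54), Lrrtm1 (-7.35), Grip1, a PDZ protein that binds Gria2 (-8.02), and Dlg2 (432-fold lower, 77.5 to 17080) were the other lower genes in hypoxia. In E15 against E13 edgeR called 0 of the 20, with 0 at an unadjusted p under 0.05 and 0 called by DESeq2 or limma-voom. The 3 of smallest p were Dlg2 (2.57), Nptxr (-2.73) and Nptx2 (-3.30).

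The enzymes that recode the pore codon were thinly covered at P12. Adarb1, the main editor of the Gria2 site, had 7.51 and 8.04 CPM at E13, 8.74 and 11.8 CPM at E15, 0.101 and 0.074 CPM in P12 hypoxia, and 0.0953 and 18.2 CPM in P12 normoxia. The first normoxic library was thus as low as the hypoxic ones. Adar had 30.7 and 33.3 CPM at E13, 56.3 and 45.9 CPM at E15, 22.7 and 0.074 CPM in P12 hypoxia and 9.30 and 2.80 CPM in P12 normoxia. In hypoxia against normoxia edgeR called 0 of the 3 enzymes, with 1 (Adarb1, -6.66) at an unadjusted p under 0.05, beside 18.2% of all tested genes. DESeq2 called 2 and limma-voom 0. Adarb2, a paralogue without known editing activity, gave -7.21 there (edgeR adjusted p = 0.298) and Adar 0.91 (0.925). Against the embryo edgeR called 0 in either condition. At an unadjusted p under 0.05 there was 1 (Adarb1, -6.63) in hypoxia and 0 in normoxia, beside 40.9% and 33.6% of all tested genes. The log2 fold changes there were -1.83 for Adar and -4.74 for Adarb2 in hypoxia, and -2.74, 2.47 and 0.039 for Adar, Adarb2 and Adarb1 in normoxia. DESeq2 called 1 in hypoxia and 0 in normoxia, and limma-voom 0. In E15 against E13 edgeR, DESeq2 and limma-voom all called 0, and 0 had an unadjusted p under 0.05, with 0.67 for Adar, -0.74 for Adarb2 and 0.40 for Adarb1.

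**Figure D5:**
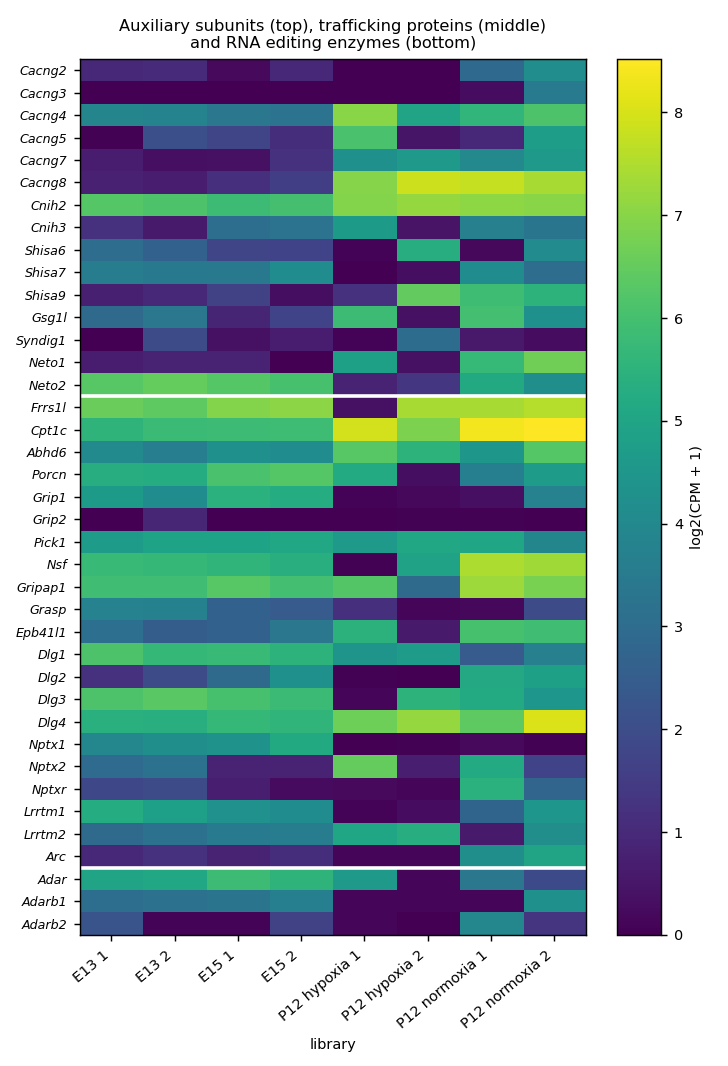
Level, as log2(CPM + 1), of 15 auxiliary subunits (top), 21 trafficking proteins (middle) and 3 RNA editing enzymes (bottom) in the 8 libraries. Cacng8 is bright in the 4 P12 libraries only, and Neto2, Arc, Dlg2 and Lrrtm1 are dark in both P12 hypoxia libraries.

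Genes with the profile most like a member were sought among 10913 tested genes with at least 10 CPM in 1 group mean, by Pearson r of log2(CPM + 1) over the 8 libraries, for the 5 members that themselves reached that level. These are descriptions over 8 libraries that share depth and replicate gaps. Gria1 was closest to Nek11 (r = 0.980), Camk1d (0.979) and Ppp1r1b (0.979), the last of which encodes the striatal phosphoprotein DARPP-32 and had 0.168 and 0.296 CPM in P12 hypoxia and 685 and 775 CPM in P12 normoxia. Gria2 was closest to Luzp2 (0.976), Pantr1 (0.959) and Laptm4a (0.958), and Luzp2 had 462 and 231 CPM in P12 hypoxia and 297 and 355 CPM in P12 normoxia, against 6.36 to 98.2 CPM in the embryo. Grik2 was closest to Rgmb (0.999), Nol11 (0.998) and Cmip (0.998), and Rgmb had 0.303 and 0.518 CPM in P12 hypoxia and 56.0 and 34.5 CPM in P12 normoxia. Grik5 was closest to Proser3 (0.993), Zfp983 (0.988) and Thumpd3 (0.982), all higher in the first hypoxic library, Proser3 having 31.4 and 0.037 CPM there. Among the genes close to Gria3 were Tmem106c (0.945) and Inpp5e (0.944), both higher in the second hypoxic library, Tmem106c having 0.135 and 109.8 CPM.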

How the data were processed

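RNA of tdTomato-positive cells was sequenced in 8 libraries, 400 pg of total RNA each, per the labels' protocols. Each library has 1 deposited file of whole-number read counts by gene, made by the authors and not normalized. The submitters' processing notes name cutadapt, STAR, Subread and GRCm38 without versions. The annotation release, strand setting and handling of multi-mapped reads are not given in the sources used here. Of 55487 rows, 1980 named no gene (0.205% to 0.266% of counts) and were left out.

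Tests used edgeR 4.0.16 in R 4.3.3, with DESeq2 1.42.0 and limma 3.58.1 as alternatives, and shares used scipy 1.17.1 in Python 3.11.15. The TMM method set the scaling factors. A low-count filter by filterByExpr, at least 10 counts and a total of 15, left 19936 genes. glmQLFit and glmQLFTest over all 8 libraries (4 residual degrees of freedom, two-sided, Benjamini-Hochberg over all tested genes, threshold 0.05) gave log2 fold changes, with SEs from the F statistic. Counting ratios pool a group's counts over its normalised sizes, with exact 95% intervals. Levels between genes used CPM per kilobase of merged GENCODE M21 exons. On simulated counts with the fitted spread, hypoxia against normoxia over 19156 genes recovered 0 of 100 genes changed 16-fold, and over 19109 genes at a low spread 100 of 100.

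The members and gene lists were chosen with earlier results of these data known. The text names all 9 members, called list genes and the 3 of smallest p per list, and marker lists as wholes: neuron, oligodendrocyte progenitor, maturing oligodendrocyte, astrocyte and radial glia, beside 4 further lists. Of these, intermediate progenitor markers summed to 4650 to 6756 CPM at P12 (4 of 9 called lower and 1, Btg2, higher in both conditions) and 2043 to 2472 CPM in the embryo, and microglia markers to 0 to 88.1 and 1.97 to 6.06 CPM. Nearly all of the P12 intermediate progenitor sum was Btg2. Its means were 4768.5 CPM in hypoxia and 5538.9 CPM in normoxia, against 278 CPM at E13 and 104 CPM at E15. Against the embryo, 8 of the 9 markers had negative log2 fold changes in both conditions. The interneuron list stands in the text. Single marker genes named were chosen after their values were seen. Endothelial and mural markers summed to 1022 to 2523 CPM at P12 and 5.63 to 14.5 CPM in the embryo, but nearly all of the P12 sum was Rgs5 (1241 and 1021 CPM in hypoxia, 2501 and 1906 CPM in normoxia, 0 in the embryo). Of the 8 markers, 4 to 6 per P12 library were at 0, Cldn5, Pecam1, Cdh5 and Vtn in all 4 of them. Equal replicate numbers did not pair libraries (correlation of deviations -0.0444 to 0.0137 over 6 group pairs). Replicate numbers follow the sample titles, and at P12 the deposited counts carry other numbers. Alternatives were DESeq2, limma-voom with sample weights, other scalings and filters, a replicate block, only the compared groups, and leaving out each library. For the shares, the longest transcript as length and no length scaling were also used. Library totals alone, and list counts under each alternative, were chosen after seeing the data. One gene that the naming rule selects by likeness to a member is not reported here.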

Additional observations from a re-analysis of the deposited data

How the results depend on the processing

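The number of members called moved with the tool and with single libraries. In hypoxia against normoxia 1 member was called; DESeq2 and a filter of at least 5 CPM in 2 libraries called 3, upper-quartile scaling and library totals alone 2, and limma-voom, only the compared groups and the replicate block 0, with 0 to 4 when 1 library was left out (0 when any 1 embryonic library was left out, 4 without the first and 3 without the second hypoxic library, 2 without either normoxic library). In hypoxia against the embryo 3 were called, 5 by DESeq2, 1 by limma-voom and 1 under the replicate block, with 1 to 5 when 1 library was left out. In normoxia against the embryo 3 were called, 5 by DESeq2, 5 with only the compared groups and 0 under the replicate block, with 0 to 6 when 1 library was left out (0 without the second normoxic library, 6 without either hypoxic library). In E15 against E13 0 were called, and 1 by DESeq2 and 1 by limma-voom. Over all genes, hypoxia against normoxia gave 602 calls, 3981 by DESeq2, 0 by limma-voom, 295 with no low-count filter, 0 with only the compared groups and 1 under the replicate block, with 0 to 3018 when 1 library was left out (edgeR gave 3632 at an unadjusted p under 0.05). E15 against E13 gave 0 calls, 373 by DESeq2, 935 by limma-voom and 229 with only the compared groups (690 unadjusted). Hypoxia against the embryo gave 5208, 9001 by DESeq2, 2390 by limma-voom and 2868 under the replicate block, with 1562 to 6836 when 1 library was left out. Normoxia against the embryo gave 3541, 7252 by DESeq2, 6731 with only the compared groups and 1705 under the replicate block, with 928 to 5990 when 1 library was left out. With library totals alone the calls against the embryo were 1646 higher and 3704 lower in hypoxia (2630 and 2578 with TMM) and 1699 higher and 2099 lower in normoxia (2408 and 1133 with TMM). Equal replicate numbers pair no libraries, and the block uses up a residual degree of freedom. Why calls were lost under the block was not tested. The AMPA share differed by 33.5 points with P12 hypoxia alone and 39.1 with P12 normoxia alone (p = 0.133, exact permutation test), and by 31.8 to 41.9 when 1 library was left out, where the smallest exact p is 0.0571. The Gria2 share of AMPA differed by 11.6 points with P12 hypoxia alone and by -27.4 to -5.29 when 1 library was left out. With the longest transcript as length, the AMPA share differed by 35.4 points and the Gria2 share by -14.8. Without length scaling these differences were 32.5 and -13.0 points. Log2 fold changes of single members that turned sign were Gria2 in hypoxia against normoxia (-0.019 with upper-quartile scaling, -0.084 to 0.38 when 1 library was left out), Gria3 in hypoxia against the embryo (-0.67 with library totals alone, -2.62 with limma-voom, -0.16 under the replicate block, -6.54 to 1.42), Grik3 in E15 against E13 (-1.98 to 1.91) and in hypoxia against normoxia (-6.67 to 0.57), Grik4 in E15 against E13 (-5.32 to 0.93), in hypoxia against normoxia (0.55 under the replicate block, -6.64 to 2.30) and against the embryo in hypoxia (-2.85 to 4.37) and normoxia (-0.38 to 6.33), and Grik5 in E15 against E13 (-0.026 under the replicate block, -0.069 to 0.17), in hypoxia against normoxia (-2.49 to 2.31) and in hypoxia against the embryo (-4.25 to 0.64). The cause was not tested. Fitted folds of Gria1 without the second hypoxic library rest on a count of 0 and are no bound. A group left with 1 library is assumed to vary like the others.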
